A study of Caenorhabditis elegans with 15 samples.

Results

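Wild-type larvae of Caenorhabditis elegans, the Bristol strain N2, were profiled as 3 separately grown populations among the 13 biological samples, on 15 arrays, of a study of small RNA and retinoblastoma pathway mutants. These 3 samples were taken by their group label alone, with no measured value used, and the report describes the signal of every gene in them. Each population was whole animals that hatched from bleached eggs overnight without food and were then fed OP50 bacteria for 6 to 7 h, and the labels give the stage as L1 to L2. The other groups had the same treatment. They were strain VC446 carrying alg-1(gk214) X (3 samples), strain RB774 carrying zfp-1(ok554) III (2 samples), strain BB11 carrying rde-4(ne299) III (3 samples) and strain MT3033 carrying lin-35(n745) unc-13(e1091) I (2 samples), called here the lin-35 unc-13 mutant. In that strain the effects of the lin-35 and unc-13 mutations cannot be told apart.

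A larva that hatches without food halts at the first larval stage, and feeding releases it into growth and postembryonic cell division. The newly fed larva has working muscle, gut, epidermis and nervous system, while its gonad holds a few undivided precursor cells and no eggs or sperm. Before each molt the epidermis builds a new collagen cuticle beneath the old one, and the pharynx renews its own lining.

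Signals were GCRMA values on the log2 scale, 1 probe set per gene. GCRMA corrects the background by the base composition of each probe, and each unit on this scale is a doubling of signal. A gene was called detected where all 3 populations had a signal of at least 5, a value between the 2 humps of the distribution, and not detected where all 3 were below 5. Probe sets bind with different strength, so an order of genes by signal is an order of array signals and not of molecules. The wild-type populations had 8306, 8240 and 8218 genes at 5 or more, against 8151 to 8374 in the 10 mutant samples, which was not a detectable difference (exact permutation test, two-sided, p = 0.587, adjusted over 5 such values 0.811, where 3 samples against 10 can reach 0.007).

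Of 17118 genes, 8019 (46.8%) were detected in wild type and 8605 (50.3%) were below 5 in all 3 populations. The other 494 (2.89%) were at 5 or more in 1 or 2 populations. The signals formed a narrow hump of dim genes and a broad hump of bright ones, with a median of 8.78 among detected genes and of 2.41 among genes below 5. Mean signals ran from 1.47 to 16.90, and 178 genes (1.04%) reached 14 or more. Replicates were close, with a median SD of 0.27 among detected genes and a 90th percentile of 0.63 (n = 3). A signal below 5 cannot tell an absent transcript from a weak probe: 536 of the 2377 detected genes with more than 1 probe set had another probe set that was below 5 in all 3 populations.

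**Figure D1:**
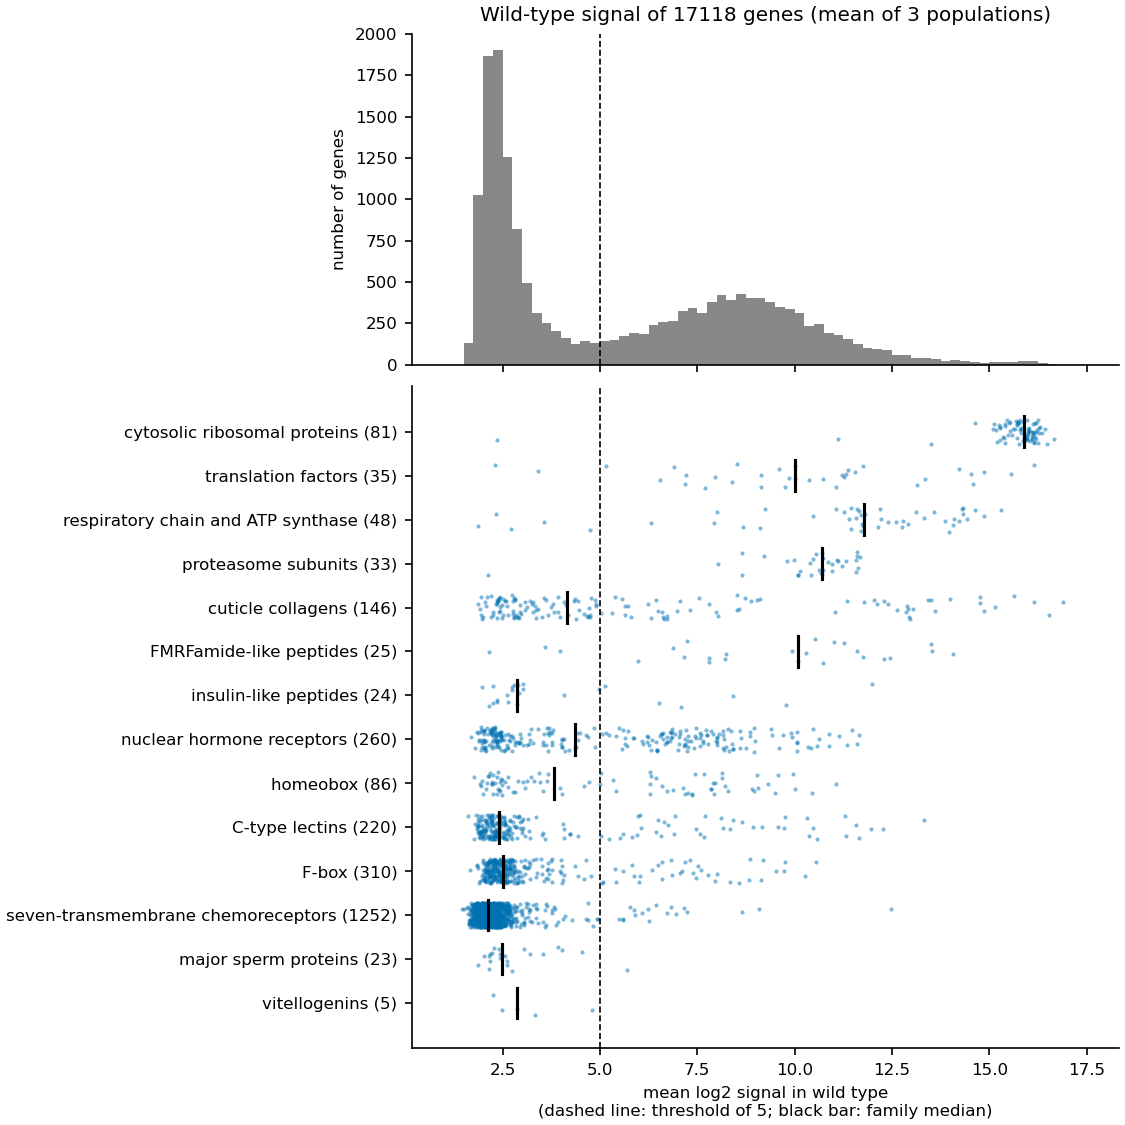
The upper panel is a histogram of the mean log2 signal of 17118 genes over 3 wild-type populations (y axis, number of genes) and the lower panel shows each member of 14 gene families as a point, with the number of members in brackets. The dashed line is the detection threshold of 5 and the black bars are family medians; ribosomal proteins sit near 16, and the chemoreceptors, sperm proteins and vitellogenins sit below 5 with few exceptions.

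The brightest signals belonged to the ribosome and the cuticle. The collagen col-93 led with 16.88, 16.93 and 16.91 in populations 1, 2 and 3, followed by the ribosomal protein gene rpl-39 with 16.55, 16.78 and 16.65. The collagen col-125 came next with 16.49, 16.53 and 16.58, before rpl-36A at 16.47 ± 0.09 (SD, n = 3) and rpl-24 at 16.43 ± 0.01. These neighbours in the order lay near each other, close to the top of the scale. The 30 brightest genes ended at rps-4, with 16.05 ± 0.11, and held 26 ribosomal protein genes, 3 collagens and eef-1A.1, the elongation factor that carries aminoacyl-tRNAs to the ribosome, at 16.14 ± 0.16. The third collagen was sqt-3, which shapes the body of the early larva, at 16.15 ± 0.08. The largest SD among these 30 genes was 0.18. Of their probe sets, 16 are of the manufacturer's type that matches several transcripts and 6 of the type prone to cross-hybridise, col-93, col-125 and sqt-3 among the last, so signals of close relatives cannot be separated there.

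Genes that make and remove protein were detected almost throughout. Of 81 cytosolic ribosomal protein genes, 80 were detected, with a family median of 15.90 against 4.47 over all genes, and rpl-42, chosen after its values were seen, alone was below 5, at 2.36. Mitochondrial ribosomal proteins were detected in 53 of 56 genes at a median of 9.85, led by mrps-5 with 11.50 ± 0.04 (SD, n = 3). Aminoacyl-tRNA synthetases, which charge tRNAs, were detected in 31 of 33 genes, led by the seryl and lysyl enzymes sars-1 with 13.04 ± 0.12 and kars-1 with 12.94 ± 0.26. Translation factors were detected in 32 of 35 genes, and the elongation factors eef-2, with 15.56 ± 0.20, and eef-1G, with 14.87 ± 0.23, followed eef-1A.1. The proteasome, which degrades tagged proteins, was detected in 32 of 33 subunit genes, with a median of 10.70. Histones, which package DNA, were detected in 27 of 34 genes, led by his-37 with 14.16 ± 0.25 and the H1 gene his-24 with 13.46 ± 0.15. Many histone genes are near-identical copies, so their separate levels are uncertain. Nuclear pore proteins were detected in 24 of 26 genes, at 11.37 ± 0.20 for npp-9.

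Energy metabolism was represented across its pathways. All 18 genes of the citric acid and glyoxylate cycles were detected, led by the malate dehydrogenase mdh-1 with 13.49 ± 0.08 (SD, n = 3), the isocitrate dehydrogenase idh-1 with 13.45 ± 0.19 and the citrate synthase cts-1 with 13.42 ± 0.26. The glyoxylate enzyme icl-1, which lets worms make sugar from fat, had 12.77 ± 0.23. Glycolysis and gluconeogenesis were detected in 18 of 20 genes, led by the glyceraldehyde-3-phosphate dehydrogenases gpd-2 and gpd-3 with 14.23 ± 0.10 and 14.19 ± 0.17. Those near-identical copies cannot be separated with certainty. The gluconeogenic carboxykinases pck-2 and pck-1 had 13.64 ± 0.28 and 11.81 ± 0.10. Respiratory chain and ATP synthase genes were detected in 43 of 48, led by the cytochrome c gene cyc-2.1 with 15.29 ± 0.16 and the ATP synthase beta subunit atp-2 with 14.86 ± 0.31. The V-ATPase, a proton pump of lysosomes, gut and excretory canal, was detected in 18 of 19 subunit genes. Fatty acid desaturases and elongases were detected in 11 of 15 genes, led by the elongases elo-1 with 13.91, 13.87 and 14.22, elo-5 with 13.57 ± 0.17 and elo-6 with 13.51 ± 0.07.

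Genes known to respond to fasting and to burn fat were mixed, with 17 of 26 detected. The acyl-CoA dehydrogenase acdh-1, an enzyme of the propionate breakdown shunt, led with 13.90, 14.01 and 14.46 in populations 1, 2 and 3. The hydratase ech-6 had 12.92 ± 0.34 (SD, n = 3), pck-1 is given above, and the nuclear receptor nhr-49, a regulator of fat use, had 11.64 ± 0.03. The acyl-CoA synthetase acs-2, which rises in starved worms, differed between populations, with 7.76, 9.16 and 10.25. The carnitine palmitoyltransferase cpt-1, which moves fatty acids into mitochondria, did so too, with 8.73, 5.95 and 8.40. The lipase lipl-3 and the starvation genes fil-1 and fil-2, chosen after their values were seen, were below 5 at 2.14, 1.82 and 2.13.

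Cuticle genes ranged from the top of the scale to the bottom. Of 146 cuticle collagens, 56 were detected, 78 were below 5 and 12 differed between populations, with signals from 1.87 to 16.90. After the 3 collagens above came dpy-13, a collagen that sets body length, with 15.59, 15.79 and 15.56, and 9 collagens were among the 200 brightest genes of the array. Cuticlins and related matrix proteins were detected in 12 of 39 genes, led by cutl-20 with 10.25 ± 0.12 (SD, n = 3). The adult collagen col-19 was below 5, at 3.82 ± 0.21, and rol-6 was near the threshold, with 4.51, 5.11 and 4.51. The collagen dpy-7 was just above 5, at 5.38 ± 0.05. Hedgehog-related secreted proteins, many of them made by the epidermis, were detected in 12 of 54 genes. Among them grd-10 had 11.75 ± 0.54 and grd-3 had 11.44 ± 0.43. Genes of the molting program were detected in 15 of 32 (46.9%), the same share as over all genes (46.8%). Those detected included the endocytic receptor lrp-1 with 11.42 ± 0.25, the nuclear receptor nhr-25 with 11.34 ± 0.25 and let-413 with 10.06 ± 0.20.

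Marker genes placed the main larval tissues in the sample. Since whole animals were measured, a low signal cannot tell few cells of a type from little RNA per cell. All 24 body wall muscle markers were detected, led by the troponin C gene pat-10 with 15.01, 15.05 and 15.08 in populations 1, 2 and 3, actin act-4 with 14.68 ± 0.18 (SD, n = 3) and paramyosin unc-15 with 14.68 ± 0.13. The dimmest of them was hlh-1, the muscle-determining transcription factor, at 7.15 ± 0.44. All 20 intestinal markers were detected as well, and the aspartyl protease asp-1 led them with 15.77, 15.69 and 15.85. The lysozyme lys-1 had 13.13 ± 0.15, and the gut GATA factors elt-2 and elt-7 had 7.55 ± 0.22 and 7.74 ± 0.45. Of 20 hypodermal and seam markers 16 were detected, led by the intermediate filament ifb-1 with 13.40 ± 0.30 and including the GATA factor elt-3 with 11.88 ± 0.14.

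**Figure D2:**
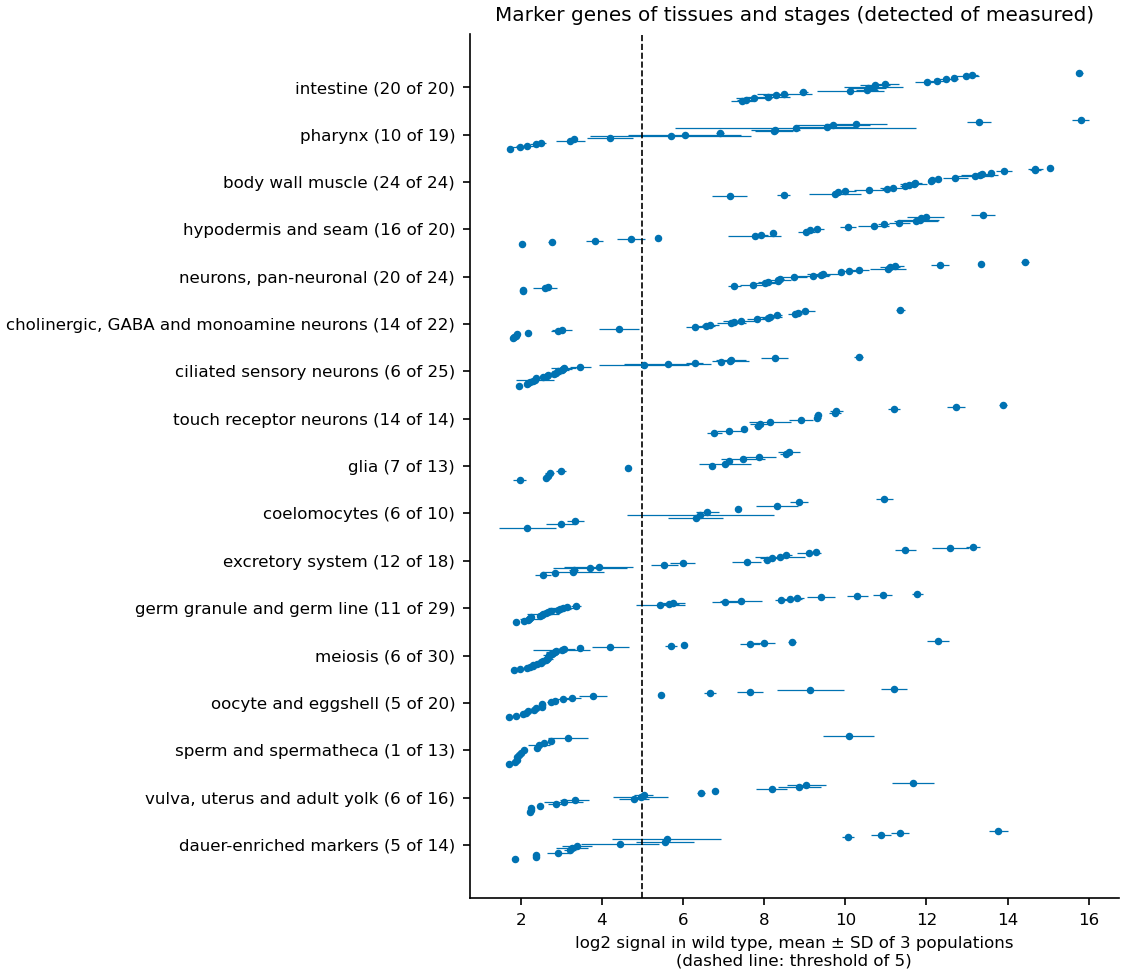
Mean log2 signal (x axis) of each marker gene in 3 wild-type populations, with bars of 1 SD, by tissue or stage; the numbers in brackets are markers detected of markers measured, and the dashed line is the threshold of 5. All muscle, intestine and touch neuron markers lie above the line, and most germ line, meiosis, oocyte and sperm markers lie below it.

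In the pharynx, the pumping feeding organ, 10 of 19 markers were detected (52.6%), near the share of 46.8% over all genes. The myosin light chains mlc-2 and mlc-1, which body wall muscle shares, led with 15.81 ± 0.21 (SD, n = 3) and 13.29 ± 0.29. The pharyngeal myosins myo-1 and myo-2 had 10.26 ± 0.76 and 8.28 ± 0.59, and the organ selector pha-4 had 8.24 ± 0.47. Below 5 were ceh-22 at 3.22 ± 0.36, a pharyngeal muscle homeobox gene, and the gland genes phat-1 and phat-2, at 1.74 ± 0.01 and 1.98 ± 0.23. The excretory system showed 12 of 18 markers, led by the shared V-ATPase subunits vha-1 and vha-8 with 13.15 ± 0.18 and 12.59 ± 0.45. Coelomocytes, scavenger cells of the body cavity, showed 6 of 10, but the defining markers unc-122 and cup-4 were below 5 at 2.17 ± 0.70 and 3.34 ± 0.21. Glial markers were detected in 7 of 13 genes (53.8%), also near that share, and none was above 8.61.

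Neurons were unevenly visible. Pan-neuronal markers were detected in 20 of 24 genes, led by the neuropeptide-processing enzymes egl-3 with 14.44 ± 0.10 (SD, n = 3) and egl-21 with 13.35 ± 0.07 and by synaptobrevin, snb-1, with 12.33 ± 0.22. The vesicle release factor unc-31 and the axon guidance gene unc-33 were below 5, at 2.06 ± 0.02 and 2.61 ± 0.30, although neurons are known to use both. All 14 touch receptor neuron markers were detected, although only a handful of cells use some of them. The touch neuron tubulin mec-7 had 13.99, 13.85 and 13.80, the tubulin acetyltransferase mec-17 had 12.54, 12.98 and 12.67, and the touch channel subunit mec-4 had 9.32 ± 0.09. Transmitter markers were detected in 14 of 22 genes. The brightest was cat-4, which makes a cofactor for dopamine and serotonin synthesis, at 11.35 ± 0.11. The acetylcholine transporter unc-17, the GABA-making enzyme unc-25 and the glutamate transporter eat-4 were detected at 8.84 ± 0.03, 8.76 ± 0.17 and 8.32 ± 0.11. The monoamine genes cat-2, tph-1, tbh-1, cat-1 and mod-5, which make, load or take up dopamine, serotonin or octopamine, were below 5, between 1.80 and 2.17, as was the cholinergic choline transporter cho-1, at 4.42 ± 0.49. Of 25 markers of ciliated sensory neurons 6 were detected, led by odr-4, which helps receptors reach the cilium, at 10.33 ± 0.11. The cyclic-nucleotide channel subunits tax-4 and tax-2 were below 5 at 3.05 ± 0.21 and 2.88 ± 0.06.

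Neuropeptide genes were widely detected. FMRFamide-like peptide genes were detected in 22 of 25, with a median of 10.08. Other neuropeptide-like genes were detected in 48 of 62, with a median of 9.39. The gene flp-15 had 13.93, 14.50 and 13.74 in populations 1, 2 and 3, and flp-5 had 13.39, 13.84 and 13.38. In the second family nlp-12, whose peptides act in movement control, had 14.26, 14.58 and 14.12, and nlp-40, a peptide of the gut that times defecation, had 14.22, 13.83 and 14.42. Insulin-like peptide genes were the reverse, with 5 of 24 detected. The brightest were ins-18 with 11.81, 12.53 and 11.65 and ins-17 with 9.91, 10.11 and 9.29. Ion channel families lay nearer the background share of 46.8%, with 21 of 45 two-pore potassium channels detected, 33 of 92 ligand-gated channels and 15 of 25 innexins, which form gap junctions. The muscle potassium channel twk-18 had 10.33 ± 0.26 (SD, n = 3), the GABA receptor unc-49 had 9.83 ± 0.19 and the excretory innexin inx-12 had 12.72 ± 0.18.

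Germ line and adult reproductive genes were largely below 5. No vitellogenin, the yolk proteins of the adult gut, was detected in all 3 populations, with vit-6 at 4.43, 5.16 and 4.79 and the other 4 between 2.25 and 3.33. Of 23 major sperm proteins 1 was detected, msp-53, with 5.10, 6.66 and 5.29, and of 50 other sperm protein genes 3 were, the brightest of them spe-39 with 7.88 ± 0.20 (SD, n = 3). Of 30 meiosis genes 6 were detected, led by the histone variant htz-1 with 12.29 ± 0.26, which is not limited to meiosis. The meiotic axis and synapsis genes him-3 and syp-1 had 2.67 ± 0.03 and 2.79 ± 0.04. Of 20 oocyte and eggshell genes 5 were detected, led by the kinase mbk-2 with 11.21 ± 0.33 and lin-41 with 9.14 ± 0.82, both also used outside oocytes. Germ granule and germ line genes were detected in 11 of 29, led by the RNA-binding genes car-1 with 11.77 ± 0.14 and cgh-1 with 10.92 ± 0.23. The germ granule helicase glh-1 was near the threshold, with 5.23, 4.96 and 6.11, and pgl-1, a scaffold of the granules, was below it at 3.15 ± 0.05.

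Several of the largest gene families of the worm were mostly below 5. Of 1252 seven-transmembrane chemoreceptor genes 17 were detected, with a family median of 2.13. Of the subfamilies, srh had 4 of 232 detected and str none of 177. The brightest was srr-4 with 13.08, 12.16 and 12.19, followed by srw-85 with 9.05, 8.93 and 9.24, srv-1 with 8.53, 8.73 and 8.64 and sra-10 with 7.17, 7.20 and 7.33. In the mutant samples srw-85 ranged from 2.49 to 9.89, with group means of 9.56 in alg-1, 2.70 in zfp-1, 2.54 in rde-4 and 9.78 in lin-35 unc-13. F-box genes, substrate adaptors for protein degradation, were detected in 35 of 310, led by fbxa-67 with 10.54 ± 0.21 (SD, n = 3). BTB and MATH genes were detected in 20 of 103, and C-type lectins, secreted sugar-binding proteins, in 38 of 220, led by clec-50 with 13.32 ± 0.24. Nuclear hormone receptors were nearer the background, with 116 of 260 detected and nhr-49, nhr-34 and nhr-31 the brightest, at 11.64 ± 0.03, 11.60 ± 0.22 and 11.48 ± 0.26. Homeobox genes were similar, with 37 of 86 detected, led by the Pbx gene ceh-20 with 11.06 ± 0.19 and the Hox gene mab-5 with 10.45 ± 0.29.

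Chromosomes differed in their detected share. On chromosome III 60.5% of 2251 genes were detected and on chromosome V 34.2% of 4316, with 54.5% on I, 51.4% on X, 48.6% on IV and 43.5% on II. Chromosome V holds 861 of the chemoreceptor genes, and without that family its share was 42.4%, still the lowest, against 61.2% on III and 45.9% on II. Among detected genes the median signal was 8.53 on X, against 8.77 to 8.91 on the autosomes. No test was made between chromosomes, since neighbouring genes are not independent.

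Families that meet microbes and foreign chemicals lay between these extremes, beside 46.8% detected over all genes. Lysozymes, saposin-like proteins and antimicrobial peptides were detected in 26 of 60 genes, led by lys-1, given above, and the saposin-like spp-14 with 12.91 ± 0.03 (SD, n = 3). Cathepsin-like and aspartyl proteases, digestive enzymes of gut and lysosome, were detected in 17 of 25, and asp-5 and asp-6 followed asp-1 with 14.83 ± 0.13 and 14.69 ± 0.02. For detoxification, 29 of 45 glutathione transferases, 30 of 64 UDP-glucuronosyltransferases and 25 of 74 cytochrome P450 genes were detected. Their leading genes were gst-27 with 12.71 ± 0.12, ugt-46 with 11.19 ± 0.14 and cyp-33A1 with 10.93 ± 0.51. Of the pals genes, whose best known members respond to intracellular infection, 2 of 23 were detected, the pair of regulators pals-22 and pals-25, with 9.05 ± 0.25 and 8.23 ± 0.19. Chaperones and genes of the unfolded protein response were detected in 28 of 30, led by calreticulin, crt-1, with 15.17 ± 0.18, and hsp-1 with 14.73 ± 0.25. The inducible chaperone hsp-70, chosen after its values were seen, had 5.77, 3.11 and 2.88, above 5 in population 1 alone. Genes of the defence against oxidants and metals were detected in 18 of 23, led by the ferritin ftn-2 with 13.49 ± 0.15 and the peroxiredoxin prdx-2 with 13.13 ± 0.07.

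DNA replication genes were detected in 31 of 33, led by the helicase subunit mcm-7 with 11.50, 11.63 and 12.43 and the ribonucleotide reductase subunits rnr-2 with 11.20 ± 0.28 (SD, n = 3) and rnr-1 with 10.65, 11.07 and 11.27. Cell cycle genes were detected in 33 of 42, led by the mitotic kinase plk-1 with 10.78 ± 0.32, beside the cell cycle inhibitor cki-1 with 10.72 ± 0.32. The S-phase cyclin cye-1 and its kinase cdk-2, chosen after their values were seen, were below 5 at 3.06 ± 0.13 and 2.14 ± 0.01. Among 20 heterochronic genes, which order larval stages, 15 were detected. The early-acting hbl-1 had 11.26 ± 0.26, and the microRNA cofactors ain-2 and ain-1 had 12.42 ± 0.20 and 10.58 ± 0.12. Of genes chosen after their values were seen, lin-28, which promotes early fates, had 9.95 ± 0.46, and the adult-fate factor lin-29 had 3.71 ± 0.34. The probe set of lin-14, likewise chosen and known to act in the first larval stage, had 2.36 ± 0.01. Dosage compensation and sex determination genes were detected in 17 of 24, led by dpy-30 with 11.88 ± 0.14 and capg-1 with 10.82 ± 0.20. Male-determining xol-1 and her-1, chosen after their values were seen, were below 5 at 2.62 ± 0.05 and 2.29 ± 0.04.

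The pathway that decides on dauer diapause was detected in 20 of 26 genes, led by the chaperone hsp-90 with 14.65 ± 0.12 (SD, n = 3) and the TGF-beta pathway genes daf-5 and daf-3 with 11.83 ± 0.10 and 11.36 ± 0.23. Markers of the dauer larva itself were detected in 5 of 14. Of these dct-16 had 13.78 ± 0.24 and the catalase ctl-2 had 11.35 ± 0.22, while hsp-12.6 and scl-1 were below 5 at 3.38 ± 0.37 and 3.21 ± 0.15. Transcription factors of early embryonic patterning were detected in 14 of 29 (48.3%), near the 46.8% over all genes. Those detected included elt-3, nhr-25 and skn-1, at 11.88 ± 0.14, 11.34 ± 0.25 and 11.10 ± 0.37, which also act after hatching. The embryonic germ line factors pie-1 and oma-1, chosen after their values were seen, were at 2.19 ± 0.03 and 1.88 ± 0.02. Argonautes, the proteins that bind small RNAs, were detected in 9 of 21 genes (42.9%), also near that share. The microRNA Argonautes alg-2 and alg-1 had 9.99 ± 0.13 and 9.22 ± 0.46, rde-1, which starts RNA interference, had 9.97 ± 0.24, and the nuclear nrde-3 had 9.46 ± 0.32. Of genes chosen after their values were seen, the sperm Argonaute alg-3 and the germ line wago-1 were below 5 at 1.79 ± 0.02 and 2.13 ± 0.03.

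The 3 populations were then compared gene by gene. Among 8232 genes with a signal of at least 5 in 2 or more populations, the median SD was 0.28, and 279 genes (3.39%) had an SD over 1. The mutants with 3 samples gave 164 such genes (1.99%) in alg-1 and 256 (3.13%) in rde-4. Without wild-type population 2 the count was 435, without population 1 it was 314 and without population 3 it was 400, each from the SD of the 2 left. Genes at 5 or more in at least 1 of the 2 left were counted there. That rule is looser, so these counts are not directly comparable with 279. Among the 279 genes, population 1 stood apart as high in 136 and population 2 as low in 71, while population 3 was apart in 30 as high and in 19 as low. Population 1 was above all 10 mutant samples in 129 of them, and population 2 was below all 10 in 95. In 40 of them all 3 populations lay within the range of the mutant samples. The 279 genes were picked for a large spread in wild type, which itself favours values beyond the mutants. No such count was made over all 8232 genes.

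**Figure D3:**
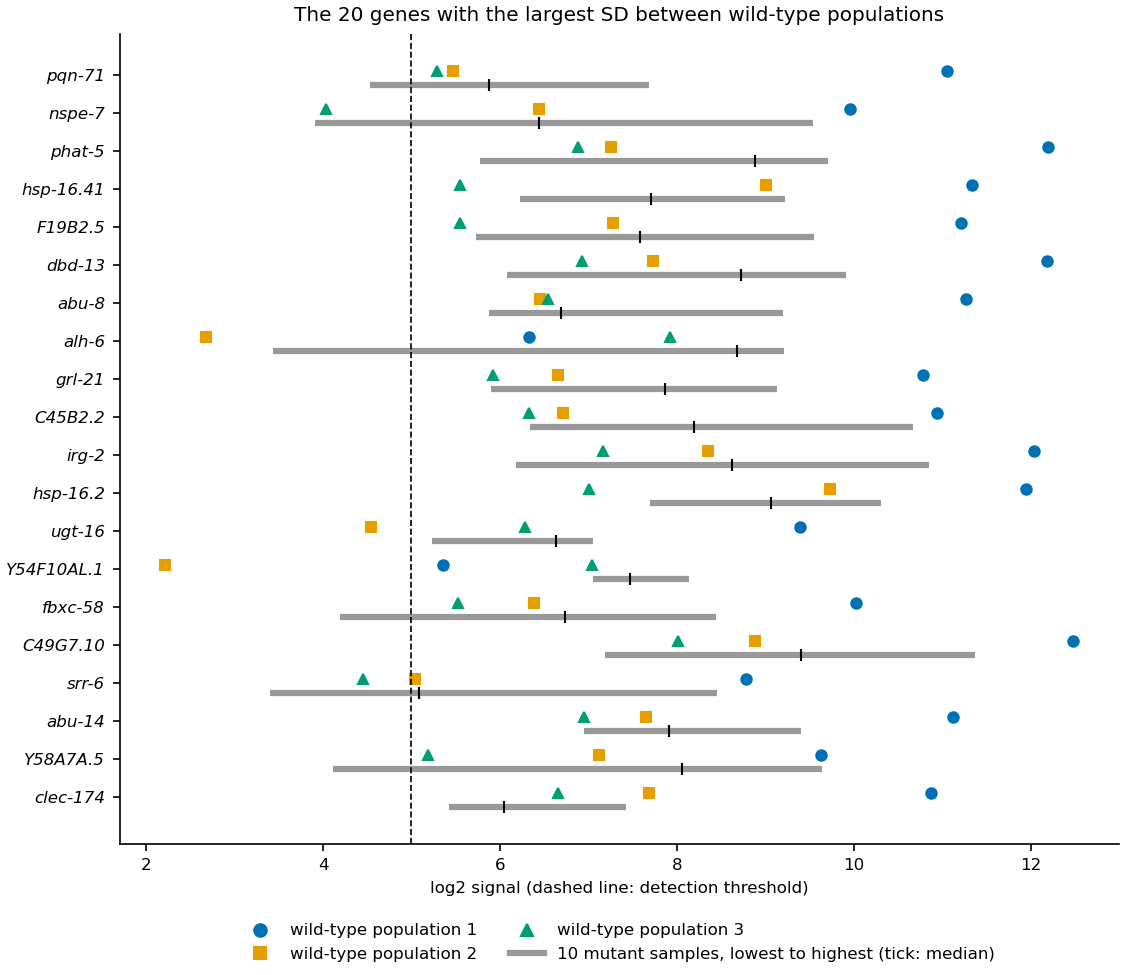
Log2 signal (x axis) of the 20 genes with the largest SD between the wild-type populations, 1 symbol per population, above a grey bar for the range of the 10 mutant samples with a tick at their median. Population 1 is the highest in 18 of the 20 genes, which were picked for this spread, and above every mutant sample in 17.

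The gene pqn-71 had the largest SD, with 11.06, 5.47 and 5.29 in populations 1, 2 and 3, against 4.53 to 7.69 in the mutant samples. Related glutamine-rich genes abu-8 and abu-14, of a kind expressed in the pharyngeal lining, had 11.27, 6.45 and 6.55, and 11.13, 7.65 and 6.95. The pharyngeal gland gene phat-5 had 12.20, 7.25 and 6.88, and the hedgehog-related grl-21 had 10.79, 6.66 and 5.92. In all of these population 1 was high and the other two were near each other. Of 34 abu and pqn genes, population 1 was the highest in 13, population 2 in 9 and population 3 in 12. Over all genes these shares were 26%, 32.3% and 41.3%. The median deviation of population 1 in this list was 0.01, against -0.04 over all genes. An SD over 1 was found in 6 of the 34 (17.6%), against 3.39% over all genes. The heat-inducible small chaperones hsp-16.41 and hsp-16.2 differed between all 3 populations, with 11.34, 9.01 and 5.55, and 11.95, 9.73 and 7.01. The infection-response gene irg-2 had 12.04, 8.36 and 7.17, and the lectin clec-174 had 10.87, 7.69 and 6.66. The aldehyde dehydrogenase alh-6, of proline breakdown, was instead lowest in population 2, with 6.33, 2.67 and 7.92, as was the uncharacterised Y54F10AL.1, with 5.35, 2.21 and 7.04. The other variable genes were ugt-16, nspe-7, dbd-13, fbxc-58, srr-6 and the uncharacterised F19B2.5, C45B2.2, C49G7.10 and Y58A7A.5.

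The gene lists differed in which population was the highest. Over all 8232 genes population 1 was the highest in 26% of genes, population 2 in 32.3% and population 3 in 41.3%. Population 1 was the highest in 9 of 10 pharyngeal markers, 7 of 9 small heat shock genes, 17 of 26 cytochrome P450 genes and 18 of 30 glutathione transferases. The pharyngeal myosin myo-1 had 11.13, 9.92 and 9.73, and the troponins tnc-2 and tni-4 had 10.74, 9.25 and 9.13, and 10.38, 9.15 and 9.13. Population 2 was the highest in 36 of 57 collagens, 20 of 27 histones and 27 of 49 neuropeptide-like genes. Population 3 was the highest in 27 of 33 translation factors, 27 of 32 tRNA synthetases, 39 of 53 mitochondrial ribosomal proteins, 21 of 24 nuclear pore genes, 22 of 31 replication genes and 21 of 33 cell cycle genes. It was the highest in 1 of 22 FMRFamide-like genes, 3 of 49 neuropeptide-like genes and none of 6 insulin-like genes. The median SD was 0.16 in body wall muscle markers and 0.08 in cytosolic ribosomal proteins, whose signals lie near the top of the scale and of which population 1 was the highest in 4 of 80.

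**Figure D4:**
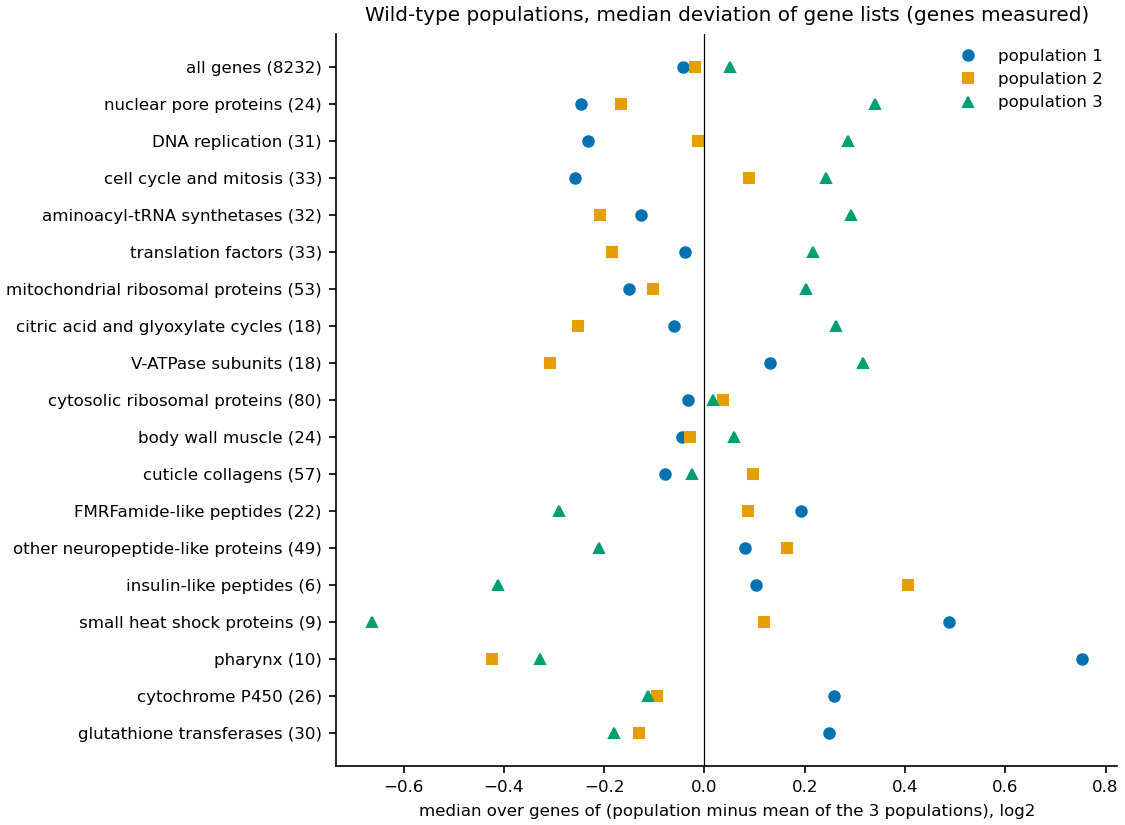
Median over the genes of each list of the difference between a wild-type population and the mean of the 3 populations (x axis, log2), 1 symbol per population, with the number of genes in brackets. Population 3 is the highest for translation, replication and nuclear pore genes and the lowest for neuropeptides, and population 1 is the highest for the pharynx, at 0.75.

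Values that follow RNA quality were set beside these. The signal at the 3′ end minus that at the 5′ end of actin, which grows as RNA breaks down or labelling runs short, was 1.25, 2.22 and 1.58 in populations 1, 2 and 3, against 0.81 to 2.96 in the mutant samples. The same difference for glyceraldehyde-3-phosphate dehydrogenase was 0.49, 0.81 and 0.55, against 0.10 to 1.11. Population 2 had the largest difference in wild type for both, within the range of the mutants. For the catalase probe sets it was 5.64, 6.58 and 5.77 in wild type, against 4.70 to 5.88 in the mutants, so population 2 lay outside their range (exact permutation test of 3 against 10 samples, two-sided, p = 0.0699, adjusted over 5 values 0.35). The part of RNA quality in the variation between populations was not tested.

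Wild type was last set against the mutants, to find genes whose level in wild type differed from the mean of the 4 mutant group means. A gene was tested if at least 2 of the 13 samples reached 5, which left 8653 genes, some of which entered through a mutant group alone. By limma across all samples with Benjamini-Hochberg adjustment at 0.05, 356 genes (4.11%) were higher in wild type and 575 (6.65%) were lower, 931 in all (10.8%). Without any adjustment 942 and 1480 genes had p under 0.05. All 3 wild-type samples lay above all 10 mutant samples in 183 genes (2.11%) and below all 10 in 175 (2.02%). Wild type was above all 4 mutant means in 325 of the 356 higher genes and below all 4 in 463 of the 575 lower genes. These counts depended on single samples. As shares of the genes tested, 2.01% were higher and 2.52% lower without wild-type population 1, 1.299% and 1.83% without population 2, and 5.32% and 10.52% without population 3. Without replicate 2 of lin-35 unc-13 they were 2.73% and 2.32%, which turned the majority round. They were 2.71% and 4.04% without replicate 1 of zfp-1, and 2.53% and 3.29% without replicate 2. Without replicate 1 or 3 of alg-1 the lower share was 4.23% or 4.25%. In a further fit all mutant samples weighed the same, as a single mutant group. Differences between the mutant strains then counted as spread, so more than the weights changed. There 1.38% were higher and 1.90% lower, and later mentions of equal weight mean this fit. Of the 931 genes 145 (15.57%) kept their call whichever 1 of the 13 samples was left out, 91 higher and 54 lower. Signals below 5 have no firm order, so a fitted difference against them is approximate.

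Lysozymes, a lipase and several uncharacterised genes were among the higher genes with the largest differences. The lysozyme lys-4 had 9.51, 11.18 and 9.27 in wild type, against 4.49 to 8.60 in the mutant samples, a difference of 4.00 ± 0.55 (SE, limma adjusted p = 1.35e-03). All its wild-type samples lay above all mutant samples. The lysozyme lys-10 had 3.87, 8.12 and 6.15 in wild type and no more than 2.78 in any mutant sample, which makes its mean at least 2.06-fold higher. It entered the comparison through wild-type samples alone, so this is a description with no test. The lipase lipl-1, which breaks down stored fat in the lysosome, had 6.34, 7.27 and 6.88 in wild type and 2.83 to 6.11 in the mutants, 8 of them below 5, a fitted difference of 2.79 ± 0.22 (SE, limma adjusted p = 2.54e-05). The dehydrogenase hphd-1, which follows acdh-1 in the propionate shunt, differed by 3.07 ± 0.55 (SE, limma adjusted p = 5.81e-03), a call lost where all mutant samples weighed the same. Among genes whose wild-type samples all lay above all mutant samples, the uncharacterised C23G10.11 differed most, with 10.94, 11.76 and 10.16 in wild type, against 2.95 to 9.45 in the mutants, a difference of 5.07 ± 0.66 (SE, limma adjusted p = 7.75e-04). T22F3.11, F46C5.1, C35C5.8, sdz-27 and F11A5.9 completed the 10 largest of this kind, with differences of 4.25, 3.67, 3.29, 2.74 and 2.58.

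**Figure D5:**
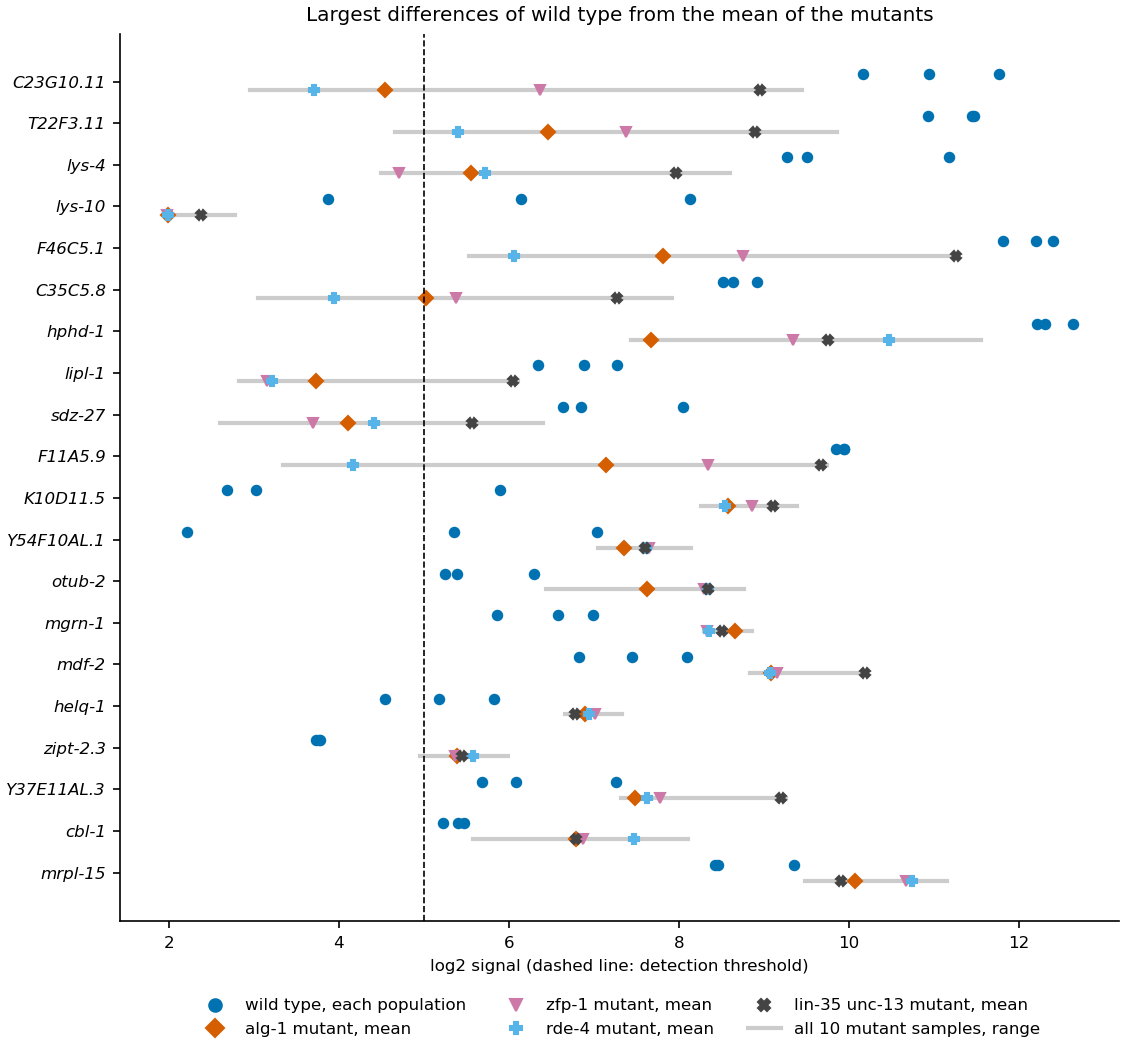
Log2 signal (x axis) of the 10 genes with the largest differences each way whose wild-type samples all lay beyond all mutant samples: wild-type populations as dots, mutant group means as other symbols and the range of the 10 mutant samples as a grey line. Wild type lies right of the grey line in the upper 10 genes and left of it in the lower 10.

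As lists, the fat and fasting genes had 7 of 19 tested members higher and none lower, with a median difference of 0.70 against -0.02 over all genes. Of all genes tested, 4.11% were higher and 6.65% lower. Lysozymes and related genes had 6 of 32 higher and none lower, with a median of 0.43. The 6 include lys-10, which entered through wild-type samples alone and is a description with no test. The acyl-CoA dehydrogenase acdh-1 had 14.12 ± 0.30 (SD, n = 3) in wild type and group means of 3.09 in alg-1, 8.05 in zfp-1, 12.96 in rde-4 and 11.42 in lin-35 unc-13, and the groups overlapped. Its call was lost where all mutant samples weighed the same. Of these calls, 3 of the 7 fat and fasting genes and 1 of the 6 lysozyme genes kept theirs whichever sample was left out; without population 2 these were also 3 and 1. Cathepsin-like proteases had 4 of 18 higher, namely cpr-6, cpr-4, cpz-1 and cpr-1, and 2 kept their call. For cpr-6, a gut protease, the values were 12.28, 12.44 and 12.08 in wild type, against 8.32 to 11.96 in the mutants, a difference of 2.19 ± 0.19 (SE, limma adjusted p = 3.85e-05), which lost its call where all mutant samples weighed the same. The gut esterase ges-1 differed by 1.71 ± 0.24 (SE, limma adjusted p = 1.65e-03) and the glyoxylate enzyme icl-1 by 2.46 ± 0.34 (SE, limma adjusted p = 1.29e-03), and both kept their calls in every alternative. Intestinal markers as a list had 3 of 20 higher and 1 lower, with a median of 0.06.

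Some neuropeptide genes were higher as well, beside 4.11% higher and 6.65% lower over all genes tested. Of 50 neuropeptide-like genes 8 were higher and none lower, with a median difference of 0.42, and of 22 FMRFamide-like genes 5 were higher and none lower, with a median of 0.30. Of these 3 and 2 kept their call whichever sample was left out, and without population 2 the numbers were 3 and 2. The gene nlp-50 had 12.83, 13.23 and 12.61 in wild type, against 11.18 to 12.05 in the mutants, a difference of 1.32 ± 0.17 (SE, limma adjusted p = 6.25e-04), and all wild-type samples were the higher. For flp-9 the values were 13.65, 13.59 and 13.29 in wild type, against 12.10 to 12.84 in the mutants, a difference of 0.95 ± 0.16 (SE, limma adjusted p = 3.50e-03). The peptide genes nlp-10 and snet-1 differed by 1.16 and 1.17. Pan-neuronal markers had 1 of 20 lower, none higher and a median of -0.13. Collagens had 2 of 61 higher, a share near that of 4.11% over all genes, and neither call stood without population 1 or without population 2. Body wall muscle and cytosolic ribosomal proteins had no gene that passed, with 24 and 80 tested and medians of -0.05 and 0.01.

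Some genes of protein synthesis and division were lower in wild type. Over all genes tested, 6.65% were lower and 4.11% higher. Translation factors had 13 of 33 lower and none higher, with a median difference of -0.57, mitochondrial ribosomal proteins 12 of 54 with a median of -0.41, and tRNA synthetases 6 of 32 with a median of -0.42. Cell cycle genes had 8 of 33 lower and replication genes 6 of 31, with medians of -0.36 and -0.30. Few of these calls stood without wild-type population 1 or without population 2, but most stood without population 3. Without population 1, 3 of the 13, 2 of the 12, 2 of the 6, 2 of the 8 and none of the 6 did, and without population 2, 1, 4, 1, 1 and none. Without population 3 the numbers were 13, 12, 5, 7 and 6. Whichever sample was left out, 1, 2, 1, 1 and none kept their call. The initiation factor eif-3.F kept its call in all alternatives, with 11.82, 11.29 and 11.53 in wild type, against 11.88 to 13.03 in the mutants, a difference of -1.02 ± 0.18 (SE, limma adjusted p = 5.37e-03). The synthetase fars-1 differed by -0.65 ± 0.15 (SE, limma adjusted p = 2.29e-02) and lost its call without population 1 or 2, mrpl-15 differed by -1.60 and mrpl-2 by -0.84. The spindle checkpoint gene mdf-2 had 7.45, 6.83 and 8.09 in wild type, against 8.84 to 10.22 in the mutants, a difference of -1.92 ± 0.23 (SE, limma adjusted p = 4.17e-04).

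Among genes whose wild-type samples all lay below all mutant samples, the uncharacterised K10D11.5 differed most, with 2.69, 5.89 and 3.03 in wild type, 2 of them below 5, against 8.26 to 9.38 in the mutants, a fitted difference of -4.90 ± 0.53 (SE, limma adjusted p = 1.93e-04). Only 1 of its wild-type samples reached 5, so it met the filter through the mutant samples, where it was high. The 4 mutant means lay close together, at 8.57 in alg-1, 8.85 in zfp-1, 8.54 in rde-4 and 9.10 in lin-35 unc-13. The ubiquitin ligase gene mgrn-1 had 5.86, 6.57 and 6.99 in wild type, against 8.29 to 8.85 in the mutants, and the deubiquitinase gene otub-2 had 5.25, 5.39 and 6.30, against 6.44 to 8.77. The zinc transporter gene zipt-2.3 was below 5 in all 3 wild-type samples, at 3.78, 3.77 and 3.73, and 4.96 to 5.99 in the mutants, at least 1.36-fold lower in wild type. It entered the comparison through mutant samples alone, so its values are a description with no test. Y54F10AL.1, helq-1, Y37E11AL.3 and cbl-1 completed the 10 with mdf-2 and mrpl-15, with differences of -2.69, -1.72, -1.68 and -1.61. Of the 20 largest differences both ways, 13 kept their call in every alternative in which they were tested. The 13 include lys-10 and zipt-2.3, whose values are descriptions with no test. The 20 were picked as called genes without overlap, which itself favours stable calls. Y54F10AL.1 lost its call in 11 of 23 alternatives, those without wild-type population 1 or 2 among them. The gene cbl-1 lost its call without either too, and sdz-27 without population 1. F46C5.1, F11A5.9 and Y37E11AL.3 lost theirs where all mutant samples weighed the same.

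Some calls rested on 1 mutant group. The pals genes called lower, and the meiotic, oocyte and germ granule genes named next, had entered the test through the lin-35 unc-13 samples, where they were high, so their values are a description. None of the 9 pals genes called was below all 4 mutant means, and without either lin-35 unc-13 sample none of them entered the test. The gene pals-2 had 2.16, 2.25 and 2.16 in wild type and group means of 2.17 in alg-1, 2.15 in zfp-1, 2.15 in rde-4 and 8.60 in lin-35 unc-13. The same held for the meiotic genes him-3 and syp-1 and the oocyte genes inx-22 and cpg-2, at 2 to 3 in wild type and in 3 of the mutants and at 10.85, 8.86, 10.79 and 7.83 in lin-35 unc-13. Germ granule gene pgl-1 had 3.15 ± 0.05 (SD, n = 3) in wild type and group means of 3.50, 3.18, 3.39 and 12.09 in alg-1, zfp-1, rde-4 and lin-35 unc-13. The calls of all 6 genes named here were lost where all mutant samples weighed the same.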

How the data were processed

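RNA from whole larvae was hybridised to Affymetrix C. elegans arrays, 1 array for each of 11 samples and 2 arrays for replicate 2 of zfp-1 and of lin-35 unc-13. The authors' deposited values are GCRMA log2 signals for 22625 probe sets, per the submitters' processing notes; its version and options were not given there. Of these, 77 are control probe sets, 20766 name 1 gene in the platform annotation, 887 name several and 895 are not listed there; 20701 were matched to RefSeq genes, which served for names and chromosomes only. Each gene was read by its probe set with the highest mean. The 2 arrays of a sample were averaged and counted as 1 sample.

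The contrast was fitted with limma 3.58.1 in R 4.3.3 on all 13 samples and 5 groups, with Benjamini-Hochberg adjustment over 8653 genes and exact permutation tests for single values. On simulated data for that contrast the fit recovered 53% of genes changed by 1 on the log2 scale and 92% of those changed by 2. It also made 14 false calls. Only a small part of the 8653 genes was given a change, so the 14 stand beside few true calls. The simulated noise was independent between genes, so shifts shared by many genes of a sample were not simulated. The members and the 71 gene lists were chosen with earlier results of these data known. Of the lists, 42 were families by symbol pattern, 12 were lists of genes by name and 17 were lists of markers. The lists by name and of markers held 689 names, of which 35 were not matched. Genes named were the 30 brightest, in each list the 4 brightest, the 2 most variable and the 4 called with the smallest p, all markers, the 20 most variable genes, and the 10 largest differences each way among called genes whose wild-type samples all lay beyond all mutant samples. Genes outside it are said to be chosen after their values were seen. The labels call the 3 wild-type samples biological replicates, and their number limits the precision. Alternatives are given in the closing section. Promoter sequences were not analysed here.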

Additional observations from a re-analysis of the deposited data

How the results depend on the processing

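The number of genes detected in wild type stayed between 7262 and 8618 over the alternatives, beside 10212 when probe sets were counted in place of genes: thresholds of 4 and 6 gave 8618 and 7262, other scalings 7990 and 8012, and leaving out 1 population 8082 to 8103. Of the 30 brightest genes, 21 were again among the 30 brightest when the probe sets of a gene were averaged, so that order depends on reading each gene by its highest probe set. Of the 71 lists, 67 lay on the same side of the share over all genes at thresholds of 4 and 6. The count of genes with an SD over 1 was 214 to 271 under other scalings, filters and probe set rules, against 279, and 314 to 435 when 1 population was left out, the highest without population 2. The counts with 1 population left out used a looser filter, a signal of 5 in at least 1 population left. The shares of tested genes higher and lower than the mutants, 4.11% and 6.65%, were less stable. Leaving out 1 sample gave 1.299% to 5.42% higher and 1.83% to 10.52% lower. With all mutant samples weighed the same, as a single group whose strain differences counted as spread, they were 1.38% and 1.90%. At a threshold of 0.01 they were 1.18% and 1.77%, and with no filter on low signals 1.47% and 1.79%, where 17118 genes were tested. Quantile normalisation gave 5.07% and 5.69%, and subtracting array medians 3.66% and 6.84%. With the replicate number as a block the shares were 6.25% and 9.83%, and 921 of the 931 called genes kept their call. Whether the numbers pair the samples was not settled. The deviations of same-numbered samples correlated between -0.26 and 0.38 over 10 pairs, of which 6 were over 0.1. Those of other pairs correlated between -0.38 and 0.38. In a group of 2 samples the deviations mirror each other, so these correlations cannot decide it. No named gene turned its direction. The causes of these shifts were not tested. Genes near the threshold and probe sets that match several transcripts limit what the signals resolve.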
